A study of Mus musculus with 5 samples.

Results

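The Slam family is a group of receptors of the immunoglobulin superfamily carried by leukocytes, here 9 genes: Slamf1, Slamf6, Slamf7, Slamf8, Slamf9, Cd84, Ly9, Cd48 and Cd244a. They were taken by gene symbol from the array's annotation, with the highest-mean probe standing for a gene, and all 9 were among the 19505 named genes measured, each with 1 probe. The members were chosen by family name, and the family itself was selected on the measured log2 differences between RG7112 and vehicle, in which several of its members were among the larger differences. The differences between treatments, and whether they passed the test, are therefore given as a description of these tumours and support nothing further.

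RNA of whole subcutaneous tumours was measured on Affymetrix Clariom S mouse arrays, with a single array for each of 5 tumours, and each tumour came from a different mouse. The tumours grew from luc+GFP+ B16.F10 cells, a mouse melanoma line marked with luciferase and GFP, in wildtype C57BL/6 mice aged 10 weeks. Every mouse received anti-PD-1, an antibody against an inhibitory receptor of T cells, into the peritoneum on days 1, 4 and 8 after the tumour cells were injected. By mouth, 2 mice received vehicle, which was corn oil with 5% DMSO. The other 3 received RG7112, an inhibitor that keeps MDM2 from binding p53. These oral doses were given every 2 days for 6 days, which appear from the labels to begin 2 days after injection, and the tumours were taken on day 13. No mouse in the series went without anti-PD-1, so the comparison is of RG7112 added to anti-PD-1 with vehicle added to anti-PD-1. The vehicle tumours carry the numbers 3 and 4 and the RG7112 tumours the numbers 1, 2 and 3, as in the labels.

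Slam receptors mostly bind themselves: a receptor on a cell engages the same receptor on its neighbour. The best known exception is the pair of Cd244a and its ligand Cd48, which is anchored in the membrane by a lipid. Slamf8 and Slamf9 have short tails without the tyrosine motifs of the family. The other receptors, apart from Cd48, carry these motifs in their tails and recruit the SH2 adaptors SAP (gene Sh2d1a) and EAT-2 (Sh2d1b1 and Sh2d1b2), and in their absence inhibitory phosphatases. The signal a cell receives thus depends on which adaptors it holds. In tumours the family is best known from T cells, NK cells and macrophages. By textbook expression, Slamf8 and Slamf9 are grouped here as mainly myeloid, Slamf7, Cd84, Cd48 and Cd244a as broad, and Slamf1, Slamf6 and Ly9 as lymphocyte-biased.

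The arrays had medians from 5.76 to 5.81 on the log2 scale, and no 2 were identical. The label of the tissue was checked on 7 melanocyte genes, whose mean log2 signal lay between 11.9 and 12.0 in all 5 tumours, near the top of the range of 2.53 to 13.3. Over all 22203 probes, limma called 315 higher and 7 lower with RG7112 at an adjusted p under 0.05, which is 1.42% and 0.0315% of probes. At an unadjusted p under 0.05, 1073 probes (4.83%) were higher and 901 (4.06%) lower. The median difference over all probes was -0.03. A whole tumour was measured, so more cells of a type and more RNA per cell cannot be told apart.

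Of the 9 receptors, 5 passed the test as higher with RG7112 (Slamf7, Slamf9, Cd84, Slamf8 and Ly9) and 4 did not pass (Cd244a, Slamf6, Cd48 and Slamf1). None passed as lower in limma, and none was lower at an unadjusted p under 0.05. The background share of probes called higher was 1.42%. The median difference over the 9 receptors was 0.80 on the log2 scale, beside -0.03 over all probes. In 8 of the 9, every RG7112 tumour lay above both vehicle tumours, as it did in 10.8% of all probes. Slamf1 was the exception. The same contrast was in view when the family was proposed, so nothing is read from these shares.

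**Figure D1:**
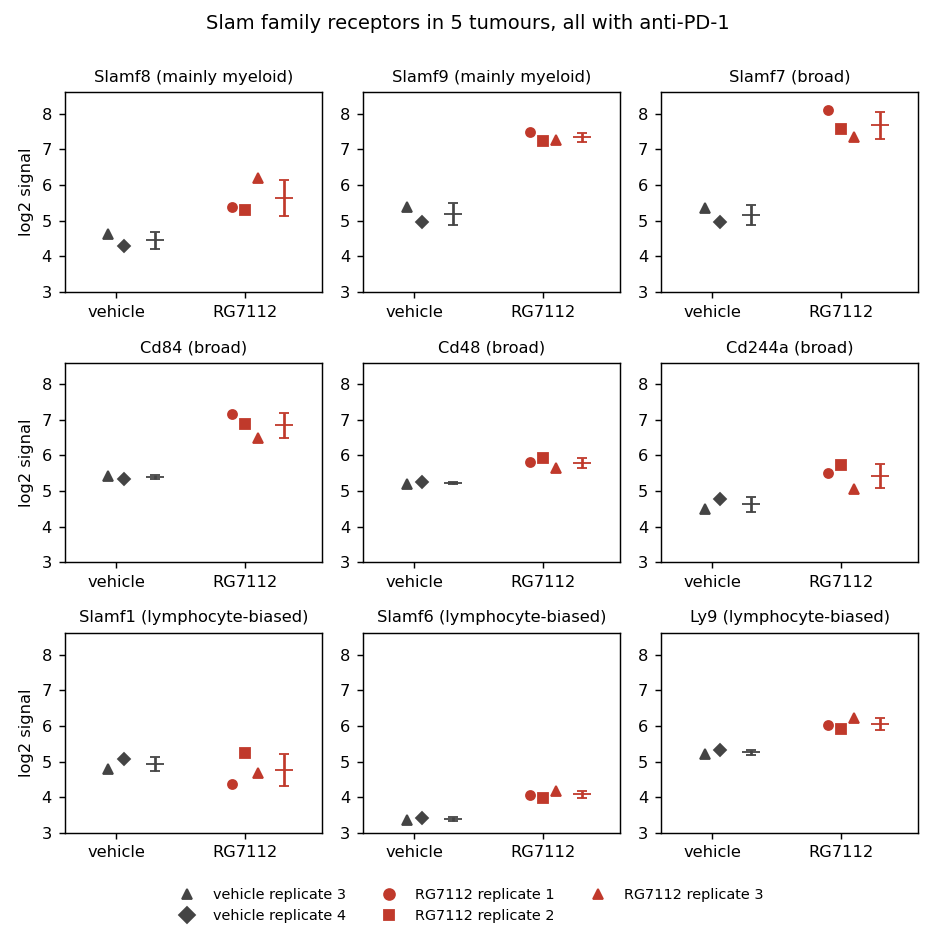
Log2 signal of the 9 Slam family receptors in each tumour (points; the shape gives the replicate number) with the group mean and SD beside them, 2 vehicle and 3 RG7112 tumours, all with anti-PD-1. Slamf7 and Slamf9 stand at 7.25 or higher with RG7112 and at 5.40 or lower with vehicle, whereas the Slamf1 points of the groups overlap.

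The promoters of 5 members are shown to set those with the larger differences beside the member whose groups overlapped. RefSeq's promoter table for GRCm38.p6 held 8 of the 9 genes, and each line below gives the 250 bases before the annotated start, 5′ to 3′ on the gene's strand. Capitals mark matches to the motifs described after the sequences, other than the short E-box.
Slamf7, chr1:171649000-171649249, minus strand: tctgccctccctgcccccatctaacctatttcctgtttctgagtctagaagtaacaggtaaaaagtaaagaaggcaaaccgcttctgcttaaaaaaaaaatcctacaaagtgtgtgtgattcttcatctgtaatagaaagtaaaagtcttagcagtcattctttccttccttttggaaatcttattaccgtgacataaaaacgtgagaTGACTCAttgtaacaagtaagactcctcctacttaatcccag
Slamf9, chr1:172475110-172475359, plus strand: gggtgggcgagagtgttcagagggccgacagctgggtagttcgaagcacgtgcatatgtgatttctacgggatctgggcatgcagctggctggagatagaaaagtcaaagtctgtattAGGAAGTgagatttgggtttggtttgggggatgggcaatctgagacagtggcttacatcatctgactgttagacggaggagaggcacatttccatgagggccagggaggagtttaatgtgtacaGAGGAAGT
Cd84, chr1:171839447-171839696, plus strand: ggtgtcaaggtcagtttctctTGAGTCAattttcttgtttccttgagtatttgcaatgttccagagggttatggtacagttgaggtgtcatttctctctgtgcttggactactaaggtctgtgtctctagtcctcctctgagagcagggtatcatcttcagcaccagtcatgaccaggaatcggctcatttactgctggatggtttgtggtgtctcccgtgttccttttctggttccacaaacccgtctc
Slamf8, chr1:172590569-172590818, minus strand: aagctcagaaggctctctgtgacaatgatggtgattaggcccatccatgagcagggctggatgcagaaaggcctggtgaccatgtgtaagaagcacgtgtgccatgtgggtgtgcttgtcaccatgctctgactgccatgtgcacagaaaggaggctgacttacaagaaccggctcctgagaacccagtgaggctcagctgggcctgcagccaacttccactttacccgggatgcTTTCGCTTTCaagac
Slamf1, chr1:171766882-171767131, plus strand: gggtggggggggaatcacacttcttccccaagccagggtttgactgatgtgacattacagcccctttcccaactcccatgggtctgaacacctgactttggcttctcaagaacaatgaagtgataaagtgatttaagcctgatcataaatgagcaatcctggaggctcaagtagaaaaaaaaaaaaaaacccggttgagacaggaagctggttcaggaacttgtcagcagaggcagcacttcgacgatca

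Both strands of all 8 promoters were searched for 9 motifs, and the share of all 32851 promoters in the table with a match is given for each. AP-1 (TGANTCA) matched in Slamf7 (TGACTCA, from 42 bases before the start), Cd84 (TGAGTCA, from 229 bases before) and Cd244a, and in 6.75% of all promoters. The core of the interferon-stimulated response element (GAAA, any 2 bases, GAAA) matched only in Slamf8, on the opposite strand from 15 to 6 bases before the start, and in 2.98% of all promoters. An ETS core (GAGGAA) matched only in Slamf9, where it overlaps 1 of its 2 matches to the PU.1-type sequence AGGAAGT (23.3% and 7.69% of all promoters). TTGCNNAAT, a C/EBP sequence, matched only in Cd244a (2.11%), and E-boxes (CANNTG) matched in all 8 (66.2%). The STAT core TTCNNNGAA (7.02%), the ETS-IRF composite (GGAA, any 2 bases, GAAA; 2.3%) and the CRE TGACGTCA (1.55%) matched in none of these windows. Slamf1, Slamf6 and Cd48 held matches to the E-box and to no other motif searched. A match describes letters in this window and is not a measured binding site.

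Slamf9, a receptor with a short tail found on macrophages and plasmacytoid dendritic cells, stood at 5.40 and 4.97 in vehicle replicates 3 and 4, and at 7.49, 7.25 and 7.27 in RG7112 replicates 1, 2 and 3. The 3 RG7112 tumours were close together, and the lowest lay 1.85 above the higher vehicle tumour. The means were 5.19 ± 0.30 (SD, n = 2) and 7.34 ± 0.13 (SD, n = 3), a log2 difference of 2.15 ± 0.18 (SE), or 4.44-fold (limma adjusted p = 0.000303). It was the 16th largest difference of all 22203 probes, and it passed with any single tumour left out (differences from 1.94 to 2.36).

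Slamf8, the other short-tailed member, restrains the production of reactive oxygen by macrophages. Its log2 signal was 4.62 and 4.29 in the vehicle tumours and 5.40, 5.31 and 6.20 in RG7112 replicates 1, 2 and 3. RG7112 replicate 3 was highest, 0.89 above replicate 2, and the groups did not overlap. The difference was 1.19 ± 0.25 (SE), or 2.27-fold, with a 95% interval from 0.63 to 1.74 (limma adjusted p = 0.0464). It did not pass without vehicle replicate 3 (1.35, adjusted p = 0.233), vehicle replicate 4 (1.02, adjusted p = 0.480) or RG7112 replicate 3 (0.90, adjusted p = 0.0624).

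Slamf7, also called CRACC or CS1, is a receptor that binds itself and is found on macrophages, NK cells and plasma cells. It had the largest difference of the family and the 4th largest of all probes. It stood at 5.36 and 4.97 in the vehicle tumours and at 8.11, 7.57 and 7.35 in RG7112 replicates 1, 2 and 3. The lowest RG7112 tumour lay 1.99 above the higher vehicle tumour. The means were 5.16 ± 0.28 (SD, n = 2) and 7.68 ± 0.39 (SD, n = 3), and the difference of 2.51 ± 0.23 (SE), or 5.70-fold, passed in limma (adjusted p = 0.000353) and with any single tumour left out (2.30 to 2.71).

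Cd84, a receptor that binds itself on myeloid cells, B cells and platelets, had nearly equal vehicle values of 5.43 and 5.35. Its RG7112 values were 7.17, 6.88 and 6.48 in replicates 1, 2 and 3, so the tumours stood in the order seen for Slamf7. The difference was 1.46 ± 0.20 (SE), or 2.75-fold (limma adjusted p = 0.00353). Without either vehicle tumour its size was similar but it did not pass (1.49, adjusted p = 0.0616 without replicate 3, and 1.42, adjusted p = 0.108 without replicate 4).

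The receptor Cd244a, known as 2B4, and its ligand Cd48 had smaller differences that did not pass. Cd244a, found on NK cells, some CD8 T cells and some myeloid cells, stood at 4.49 and 4.78 with vehicle and at 5.50, 5.73 and 5.06 with RG7112. Its lowest RG7112 tumour, replicate 3, lay 0.28 above the higher vehicle tumour. The difference of 0.80 ± 0.21 (SE; limma adjusted p = 0.132) had a 95% interval from 0.34 to 1.25, and it passed without RG7112 replicate 3 (0.98, adjusted p = 0.0480). Cd48, present on nearly all leukocytes, stood at 5.20 and 5.25 with vehicle and at 5.82, 5.92 and 5.64 with RG7112. The groups did not overlap, and the difference was 0.57 ± 0.16 (SE), with a 95% interval from 0.22 to 0.92 (limma adjusted p = 0.176). RG7112 replicate 2 was the highest and replicate 3 the lowest of the RG7112 tumours for both the receptor and its ligand.

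Of the lymphocyte-biased receptors, Ly9, also called CD229 and found on T and B cells, passed. It stood at 5.21 and 5.31 with vehicle and at 6.03, 5.91 and 6.23 with RG7112, a difference of 0.79 ± 0.16 (SE), or 1.73-fold (limma adjusted p = 0.0390). The groups did not overlap, but the call was lost whichever single tumour was left out (adjusted p from 0.0592 without RG7112 replicate 2 to 0.428 without vehicle replicate 3). It was also lost with an intensity trend in the variance (adjusted p = 0.0812).

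Slamf6, also called Ly108 and found on T, NK and B cells, had a low signal, at the 18.5th percentile of all probe means. It stood at 3.35 and 3.42 with vehicle and at 4.07, 3.98 and 4.17 with RG7112, with no overlap. Its difference of 0.69 ± 0.15 (SE) lay just outside the threshold (limma adjusted p = 0.0616), and it passed under 4 other settings of the fit or the normalization (adjusted p from 0.0379 to 0.0469).

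Slamf1, also called CD150, is a receptor of activated lymphocytes, dendritic cells and macrophages that binds itself. Its log2 signal was 4.79 and 5.06 with vehicle and 4.38, 5.25 and 4.67 with RG7112. The vehicle values lay inside the range of the RG7112 values, of which replicate 2 was the highest and replicate 1 the lowest. The difference was -0.16 ± 0.24 (SE; limma adjusted p = 0.919), with a 95% interval from -0.68 to 0.36, and it changed sign without RG7112 replicate 1 (0.03).

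**Figure D2:**
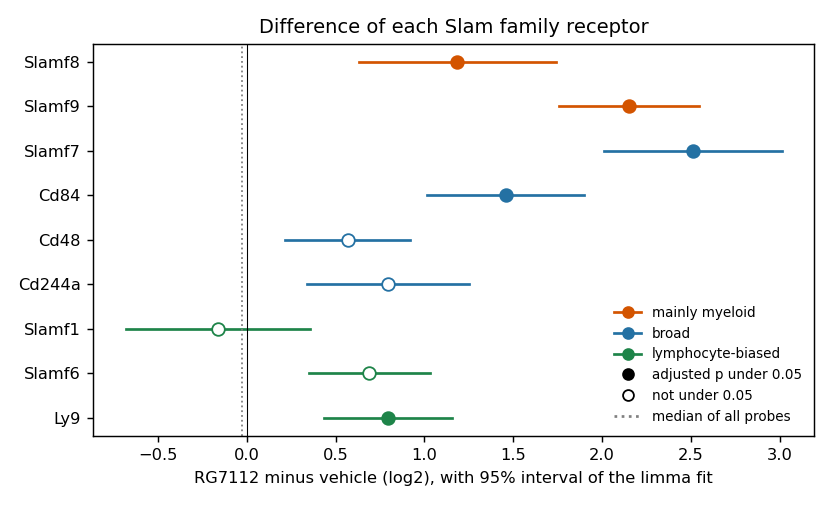
RG7112 minus vehicle on the log2 scale for each Slam family receptor (points) with the 95% interval from limma (lines), coloured by role and filled where the adjusted p was under 0.05; 2 vehicle and 3 RG7112 tumours. Slamf7 (2.51) and Slamf9 (2.15) lie farthest to the right, and only the interval of Slamf1 (-0.68 to 0.36) spans 0.

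By role, the mainly myeloid receptors had a median difference of 1.67 (2 of 2 passed), the broad receptors 1.13 (2 of 4) and the lymphocyte-biased receptors 0.69 (1 of 3). Over all probes the median was -0.03, and 1.42% were called higher. The family was selected on this same contrast, so nothing is read from these counts. The difference between these roles was not tested. If the broad genes are placed by lineage, with Slamf7 and Cd84 as myeloid and Cd244a as lymphocytic, the medians were 1.80 over 4 myeloid genes (4 passed) and 0.74 over 4 lymphocytic genes (1 passed), which leaves Cd48 alone at 0.57. The smallest difference among those 4 myeloid genes, 1.19 in Slamf8, exceeded the largest among the 4 lymphocytic genes, 0.80 in Cd244a. Both the roles and this placement were chosen with earlier results of these data known. Slamf7 is also found on NK cells and plasma cells, Cd84 on B cells, and Slamf1 on dendritic cells and macrophages. Nothing is therefore read from this separation. Probe signals of different genes are not on 1 scale of abundance, so levels are not ordered between receptors.

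The RG7112 tumours did not share 1 order across the family. Replicate 1 was the highest RG7112 tumour for Slamf7, Cd84 and Slamf9, replicate 2 for Cd48, Cd244a and Slamf1, and replicate 3 for Slamf8, Slamf6 and Ly9. Averaged over all 9 receptors the RG7112 tumours were nearly level, at 6.00, 5.98 and 5.90, against 4.87 and 4.82 for the vehicle tumours. For the mean of the broad receptors, replicate 3 was the lowest of the RG7112 tumours (6.13 against 6.65 and 6.53), and for the mainly myeloid receptors it was the highest (6.74 against 6.44 and 6.28).

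All 9 genes lie on chromosome 1. In the RefSeq gene order of GRCm38.p6, Cd244a, Ly9, Slamf7, Cd48, Slamf1, Cd84 and Slamf6 follow each other with no other measured protein-coding gene between them. Slamf9 and Slamf8 lie farther on, with Igsf9, Tagln2, Cfap45 and Vsig8 between them. Of the 24 neighbours within 5 measured genes of a member, limma called 0 in either direction, while 3 were higher and 0 lower at an unadjusted p under 0.05, beside 4.83% and 4.06% of all probes. Their median difference was 0.03 and their differences ran from -0.23 to 1.01. The neighbours with the largest differences, picked after their values were seen, were F11r, which encodes a junctional adhesion molecule (1.01 ± 0.27 (SE), adjusted p = 0.146), and Tagln2, which encodes an actin-binding protein (0.79 ± 0.18 (SE), adjusted p = 0.0698). Within the run of 7, Slamf1 (-0.16) lies between Cd48 (0.57) and Cd84 (1.46).

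**Figure D3:**
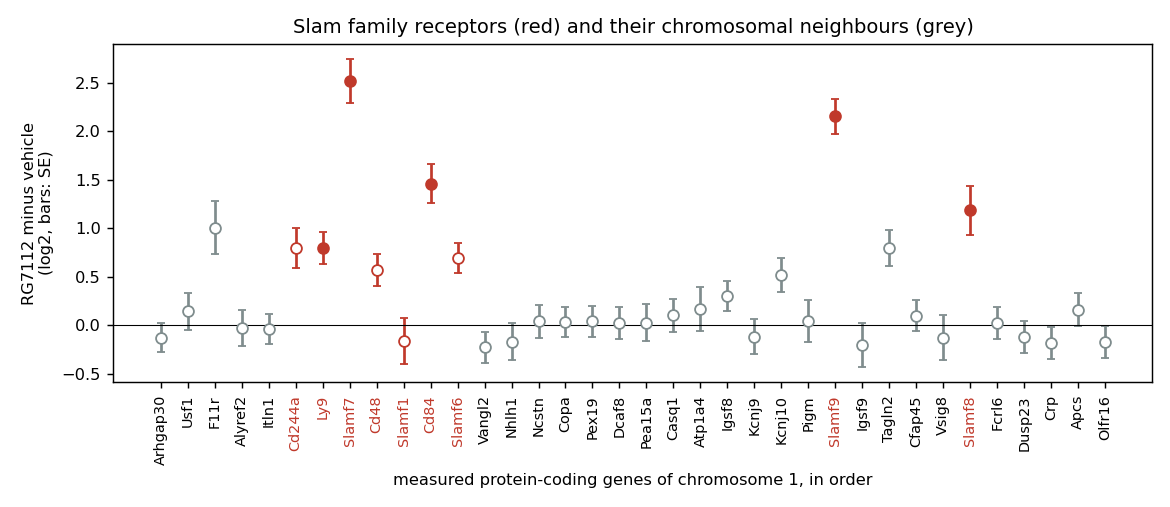
RG7112 minus vehicle on the log2 scale (points, bars give the SE) for the Slam family receptors in red and their measured protein-coding neighbours in grey, in their order on chromosome 1 with no distances; filled points had an adjusted p under 0.05. The filled points, 5 in all, are Slam receptors, and the highest neighbour is F11r at 1.01.

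The genes that carry Slam signals were read from a list of 28, of which 24 were measured. In limma 8 of these 24 passed as higher, beside 1.42% of all probes, and 16 did not pass. None was called lower, and none was lower at an unadjusted p under 0.05. The median difference of the 24 genes was 0.45, beside -0.03 for all probes. Of the SH2 adaptors, Sh2d1b1, the EAT-2 gene that couples Slam receptors to activation in NK cells and myeloid cells, stood at 4.80 and 4.24 with vehicle and at 6.27, 6.10 and 5.90 with RG7112. It rose by 1.57 ± 0.20 (SE; limma adjusted p = 0.00215) and did not pass when vehicle replicate 4 was left out (1.29, adjusted p = 0.0731). Its paralog Sh2d1b2 differed by -0.01 ± 0.16 and Sh2d1a, the SAP gene of T and NK cells, by 0.04 ± 0.16. Sh2d1a had a low signal, at percentile 23.2 of all probe means. Sh2d1b1 lay with all RG7112 tumours above both vehicle tumours, whereas the groups of Sh2d1a and Sh2d1b2 overlapped.

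All 4 genes listed here as partners of Slamf7 in phagocytosis by macrophages passed as higher, beside 1.42% of all probes. Itgam and Itgb2, the chains of the integrin Mac-1, rose by 1.57 ± 0.25 and 1.10 ± 0.15 (SE). Fcer1g and Tyrobp, signalling chains that carry activating tyrosine motifs, rose by 1.98 ± 0.22 and 1.30 ± 0.19 (SE). These genes serve many myeloid receptors besides Slamf7. Their limma adjusted p-values ran from 0.00109 for Fcer1g to 0.00861 for Itgam. Without vehicle replicate 4 none of the 4 passed (adjusted p from 0.0539 for Fcer1g to 0.152 for Tyrobp), and without vehicle replicate 3 Itgb2 (adjusted p = 0.0591) and Tyrobp (adjusted p = 0.0544) did not.

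Among the phosphatases and Csk, Inpp5d, which encodes the lipid phosphatase SHIP-1 that mediates inhibitory Slam signals, rose by 0.98 ± 0.16 (SE; adjusted p = 0.0111 in limma). Ptpn6, the gene of SHP-1, differed by 0.65 ± 0.22 (adjusted p = 0.302), Ptpn11, the gene of SHP-2, by -0.09 ± 0.16 and the kinase gene Csk by 0.09 ± 0.16. Downstream, the exchange factor gene Vav1 rose by 1.28 ± 0.22 (adjusted p = 0.0119) and Prkcq, the protein kinase C theta gene used by SAP signals in T cells, by 0.81 ± 0.16 (adjusted p = 0.0268). Plcg2 and Plcg1, phospholipase C genes, differed by 0.37 ± 0.20 and -0.26 ± 0.17. The calls of Inpp5d and Vav1 were lost when either vehicle tumour was left out, that of Vav1 also when RG7112 replicate 3 was, and that of Prkcq whichever tumour was left out.

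Of the 7 kinases in the list, 4 were measured (Fyn, Fgr, Syk and Btk), and the rest were not analysed here. In limma 0 of the 4 passed, and 3 were higher at an unadjusted p under 0.05, beside 4.83% of all probes. The smallest p was that of Btk, a kinase of B cells and myeloid cells, with a difference of 0.98 ± 0.24 (SE; adjusted p = 0.106). Fyn, the kinase that SAP recruits, differed by -0.07 ± 0.15. The 4 genes of the Vps34 lipid kinase complex, to which Slamf1 couples in phagosomes, had differences from -0.07 to 0.21, and limma called 0 of them (0 at an unadjusted p under 0.05). Among them Uvrag had the smallest p, with 0.21 ± 0.15 (SE; adjusted p = 0.792). Cd2, a T and NK cell receptor that also binds Cd48, differed by 0.32 ± 0.23 (SE; limma adjusted p = 0.783).

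**Figure D4:**
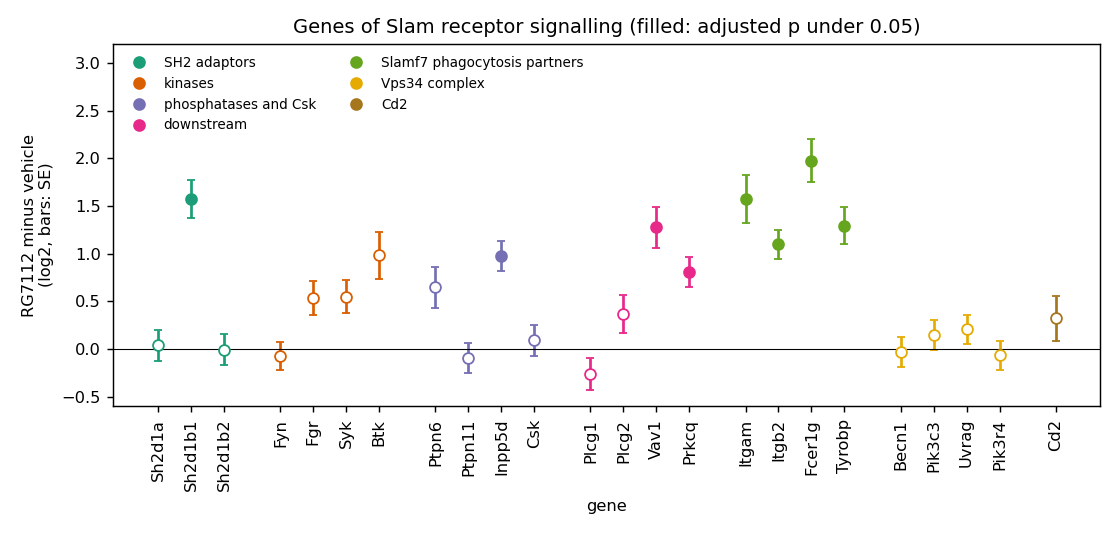
RG7112 minus vehicle on the log2 scale (points, bars give the SE) for the 24 measured genes of Slam receptor signalling, coloured by their part in it and filled where the adjusted p was under 0.05. All 4 Slamf7 phagocytosis partners are filled and lie at 1.10 or higher, and of the 3 adaptors only Sh2d1b1 (1.57) is.

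Markers of the cells that carry these receptors were read in the same tumours. Of 12 macrophage and monocyte markers 10 were measured, and 5 of these passed as higher (Aif1, Ly6c2, Adgre1, Fcgr1 and Csf1r), beside 1.42% of all probes. Their summed log2 signal was 58.8 and 61.0 in the vehicle tumours and ran from 69.0 to 74.2 with RG7112, and their mean shifted by 1.18. Aif1, also known as Iba1, rose by 2.57 ± 0.20 (SE; limma adjusted p = 0.000303) and Adgre1, the gene of F4/80, by 1.58 ± 0.18 (adjusted p = 0.00127). With vehicle replicate 4 left out, Adgre1 (adjusted p = 0.0574), Ly6c2 (adjusted p = 0.0666), Fcgr1 (adjusted p = 0.0846) and Csf1r (adjusted p = 0.182) did not pass. In the mean of these markers RG7112 replicate 1 was the highest (7.42) and replicate 2 the lowest (6.90). Replicate 2 was also the lowest in the mean of the mainly myeloid Slam receptors (6.28), where replicate 3 was the highest (6.74). In the mean of the broad receptors replicate 1 was the highest (6.65) and replicate 3 the lowest (6.13). In that of the lymphocyte-biased receptors replicate 2 was the highest (5.05) and replicate 1 the lowest (4.83). These orders of the means did not hold for each receptor. Slamf6 and Ly9 were lowest in replicate 2 (3.98 and 5.91), where Slamf1 was highest (5.25). Slamf9 was highest in replicate 1 (7.49) and Slamf8 in replicate 3 (6.20). The part of the macrophage shift in the Slam differences was not tested.

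For lymphocytes the shifts were smaller, but many of these markers had lower signals. By percentile of all probe means, T cell markers stood from 27.9 (Cd3d) to 52.4 (Cd8a) and NK cell markers from 7.3 (Klrb1c) to 51.7 (Gzmb). The macrophage and monocyte markers stood from 42.4 (Mertk) to 91.8 (Lyz2), so sizes of shift may not be comparable between the lists. Of 10 T cell markers 1 passed as higher, the CD8 chain Cd8b1 (0.90 ± 0.18 (SE), limma adjusted p = 0.0314), a call lost whichever tumour was left out. Cd3e differed by 0.75 ± 0.21 (limma adjusted p = 0.178). Of all probes, 1.42% were called higher. At an unadjusted p under 0.05, 5 of the 10 T cell markers were higher, beside 4.83% of all probes. The summed T cell signal was 47.6 and 49.0 with vehicle and ran from 52.3 to 53.4 with RG7112. Of 9 NK cell markers limma called 0, while 4 were higher at an unadjusted p under 0.05, beside 4.83% of all probes. The genes of smallest p encode the granule proteins Prf1 and Gzmb and differed by 0.75 ± 0.20 (adjusted p = 0.148) and 1.00 ± 0.33 (adjusted p = 0.293). The summed NK signal ran from 35.7 to 38.6 with vehicle and from 40.1 to 41.9 with RG7112. The Gzmb groups overlapped, with 5.97 in vehicle replicate 3 and 5.88 in RG7112 replicate 3. Ncr1, a defining NK receptor, had a low signal, at percentile 20.6 of all probe means, and differed by 0.07 ± 0.16. Klrb1c and Klre1 differed by 0.08 ± 0.20 and 0.05 ± 0.16, and Klrk1 and Klrc1 by 0.61 ± 0.21 and 0.59 ± 0.19. The cells that the granule gene transcripts came from were not tested. The part of T and NK cells in the Slam differences was not tested.

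For B cells and plasma cells, which carry Ly9, Slamf6, Cd84 and Slamf7, limma called 0 of 6 and 0 of 6 measured markers. Of all probes, 1.42% were called higher. At an unadjusted p under 0.05, 0 and 1 of these markers were higher, beside 4.83% of all probes. The summed B cell signal was 26.7 and 26.9 with vehicle and 24.0 to 27.3 with RG7112, with Pax5 (-0.22 ± 0.21) and Cr2 (-0.14 ± 0.16) the genes of smallest p. The summed plasma cell signal was 33.1 and 33.5 with vehicle and 33.2 to 34.2 with RG7112, with Jchain (0.40 ± 0.18) and Prdm1 (0.46 ± 0.23) the genes of smallest p. Jchain had a very low signal, at percentile 1.2 of all probe means, and Mzb1 a low one, at percentile 17.9. Sdc1 and Xbp1 had high signals, at percentiles 78.6 and 95.6, and make up much of the plasma cell sum. The cells that these transcripts came from were not tested. Both lists overlapped between the groups.

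Of 9 dendritic cell markers 1 passed as higher, beside 1.42% of all probes. This was the integrin chain Itgax, which macrophages also express (0.98 ± 0.20 (SE), limma adjusted p = 0.0376). It did not pass with either vehicle tumour, RG7112 replicate 1 or RG7112 replicate 2 left out (adjusted p from 0.0923 to 0.434). Xcr1 had the next smallest p (0.46 ± 0.18), and the list summed to 42.2 and 42.5 with vehicle and 42.3 to 44.7 with RG7112. Limma called 0 of 5 neutrophil, 0 of 5 mast cell, 0 of 4 platelet and 0 of 7 melanocyte markers. At an unadjusted p under 0.05, 1, 1, 0 and 0 of them were higher, beside 4.83% of all probes. The genes of smallest p were Csf3r (0.62 ± 0.17) and S100a8 (-0.13 ± 0.16) for neutrophils, and Kit (0.57 ± 0.23) and Mcpt4 (0.38 ± 0.25) for mast cells. They were Gp9 (-0.33 ± 0.17) and Itga2b (-0.23 ± 0.18) for platelets, and Mlana (0.24 ± 0.16) and Tyr (-0.14 ± 0.16) for melanocytes. Kit was the mast cell marker higher at an unadjusted p under 0.05. Its groups overlapped, with 5.28 in vehicle replicate 4 and 5.27 in RG7112 replicate 1. Kit stood at percentile 42.6 of all probe means and the other measured mast cell markers from 2.6 to 26.0. The cells that Kit came from were not tested. In the order vehicle and RG7112, the sums ran from 21.4 to 21.6 and 21.8 to 22.3 for neutrophils, and from 19.0 to 20.2 and 20.0 to 20.7 for mast cells. They ran from 23.9 to 24.3 and 22.9 to 23.7 for platelets, and from 83.1 to 83.6 and 83.6 to 83.9 for melanocytes.

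**Figure D5:**
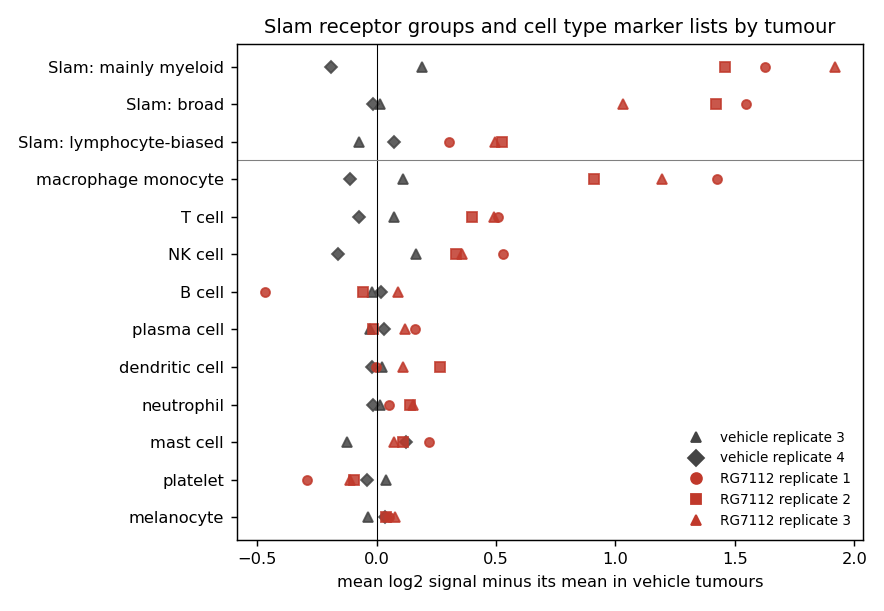
Mean log2 signal of each Slam receptor role group (above the grey line) and of each cell type marker list (below it) in every tumour, minus that list's mean over the 2 vehicle tumours; the shape gives the replicate number. The RG7112 points lie farthest to the right for the mainly myeloid and broad Slam receptors and the macrophage and monocyte markers (mean shifts of 1.67, 1.33 and 1.18), and near 0 for melanocyte markers (0.06).

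The genes whose values over the 5 tumours lay nearest to those of a receptor were found by the root mean square distance of log2 values, each gene centred on its vehicle mean, among 18467 named genes other than predicted genes and clone names. Nearest to Slamf7 were Fcgr4, an activating receptor for IgG (distance 0.10), the C-type lectins Clec12a (0.14) and Clec4a1 (0.15), the Toll-like receptor relative Cd180 (0.23) and the C-type lectin Clec4a3 (0.25). Fcgr4 stood at 5.62 and 5.23 with vehicle and at 8.41, 7.89 and 7.40 with RG7112, in the same order of tumours as Slamf7. Nearest to Ly9, the passing receptor with the smallest difference, were Fli1, an ETS transcription factor of blood and endothelial cells (0.01), the apelin receptor gene Aplnr (0.05), the complement genes C2 (0.06) and C1rb (0.06) and the peptide transporter gene Tap2 (0.07). These distances describe 5 tumours and rest on the same values as the differences above.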

How the data were processed

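The deposited values are log2 signals per probe set (probe) that the authors made with the oligo package and RMA, per the submitters' processing notes; their versions and options and the genome build were not given in the sources used here. RMA corrects background, equalises distributions between arrays and summarises probes, and it leaves no detection calls, so low signals have no stated floor. Of 22203 probes, 19572 carried 1 gene symbol in the platform annotation. The other 2631 carried none or more than 1, which were not counted apart, and were left unnamed.

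RG7112 minus vehicle was fitted on all probes with limma 3.58.1 in R 4.3.3 (lmFit and eBayes, default settings, 3 residual degrees of freedom and a prior of 7.92), calling probes at a Benjamini-Hochberg adjusted p under 0.05, adjusted across the whole table of 22203. With 2 against 3 tumours an exact permutation test, over 10 splits, could give no p below 0.1. Simulated data for this comparison, in 10 sets, had 22203 probes, of which 200 were given a change. The fit called 1.34% of the probes given a log2 change of 0.5, 64.5% at a change of 1 and 99.2% at a change of 2. Of its calls, 5.06% were false. The simulated noise was independent between probes, so these shares may differ from the recovery in the tumours.

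The receptors, lists, roles and motifs were chosen with earlier results of these data known. Named were all 9 receptors, called signalling genes, the adaptors, the gene of smallest p in each signalling list, 2 markers per cell type list and 5 nearest genes for each of 2 receptors. Other signalling genes, F11r, Tagln2, further macrophage markers and Ncr1 were named after their values were seen. So were further T cell, NK cell and plasma cell markers. Of the lists, 4 signalling genes and 5 marker genes were not analysed here. Alternatives were an intensity trend or robust variance, array weights, quantile and cyclic loess normalization, no dim probes, 1 probe per gene, the mean of a gene's probes, adjusted p under 0.10, other role groups, and each tumour left out.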

Additional observations from a re-analysis of the deposited data

How the results depend on the processing

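No paired analysis was made, because each tumour came from a different mouse and the labels name no pairs between the groups. Of the 5 receptors that passed, Slamf7 and Slamf9 passed under all 14 alternatives each; over them, differences ran from 2.30 to 2.71 and from 1.94 to 2.36. With single tumours left out, 2 to 4 receptors, 0 to 7 signalling genes, 65 to 268 probes higher and 0 to 5 probes lower were called in limma; the lowest of each came without vehicle replicate 4 (for the receptors also without vehicle replicate 3), where 11 of 24 signalling genes were higher and 674 probes lower at an unadjusted p under 0.05. A lone vehicle tumour was assumed to vary like the others. Probes called lower numbered 7 as reported, 16 with array weights, 4 with cyclic loess, 2 without dim probes and 29 at adjusted p under 0.10. With single tumours left out, the Slamf1 difference ran from -0.40 to 0.033, and turned positive without RG7112 replicate 1. The median of the broad receptors, 1.13, was 0.57 with Cd48 as the only gene left in that group. The cause of these changes was not tested, other than fewer genes or samples by construction. Without dim probes, Slamf1 and Slamf6 were not tested.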
